A study of Mus musculus with 6 samples.

Results

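The 10 genes *Cdkn1a*, *Mdm2*, *Ccng1*, *Trp53inp1*, *Phlda3*, *Eda2r*, *Bax*, *Bbc3*, *Zmat3* and *Aen* are direct transcriptional targets of p53, and they serve as a readout of DNA damage or altered p53 activity in edited cells. They were chosen by name from the 55385 genes in the count table, and all 10 were among the 16951 genes with enough counts to be tested. All were detected in the wild-type libraries of mouse embryonic stem cells (mESCs), in the upper part of the expression range. These libraries can also hold RNA of feeder cells. In cells with the heterozygous deletion *Trp53inp1*, *Eda2r*, *Ccng1* and *Mdm2* rose between 1.13-fold and 1.18-fold, where 2.23% of all tested genes were called higher. DESeq2 called only *Trp53inp1* and *Ccng1* among them. The calls of *Eda2r*, *Ccng1* and *Mdm2* were lost without any 1 wild-type or heterozygous library, and that of *Trp53inp1* without heterozygous replicate 2. In cells with the homozygous deletion *Cdkn1a*, *Phlda3* and *Trp53inp1* fell by 14.2% to 19.1%, where 10.5% of all tested genes were called lower. *Phlda3* was lost in some fits with a library left out. Between the deletions, 7 of the 10 were lower in homozygous than in heterozygous cells, where 12.9% of all tested genes were lower. Of these 7, *Bax* and *Zmat3* were lost under DESeq2 and in most fits with a library left out. No member changed by more than a log2 value of 1 in any comparison.

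RNA was sequenced from 3 genotypes with 2 libraries each: wild-type mESCs, mESCs with a heterozygous *Wnt6* deletion and mESCs with a homozygous *Wnt6* deletion. The deleted region is an anchor of a long-range Polycomb-associated chromatin loop at *Wnt6* on chromosome 1, removed with CRISPR-Cas9. The parental line is G4, an F1 hybrid of the 129/Sv and C57BL/6 strains. Every culture was kept in medium with LIF on CD1 feeder cells, so each library can also hold RNA of feeder fibroblasts. The methods describe isolation of individual edited clones, and a change that belongs to a clone and a change that follows from the deletion cannot be told apart here. The labels do not say whether the 2 libraries of a genotype come from separate cultures, so the p-values measure the spread between these libraries, which may be technical.

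p53 is a transcription factor that is kept at a low level by the ubiquitin ligase Mdm2 and is stabilised after DNA damage. It binds a response element made of a repeated 10-base consensus and activates genes for cell cycle arrest, apoptosis, DNA repair and its own feedback control. Mouse embryonic stem cells are known to hold abundant p53 and to divide with short gap phases.

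The libraries held between 23813912 and 28964706 counts. *Wnt6*, the gene after which the labels name the deletion, had 11 and 13 counts in the wild-type, 6 and 4 in the heterozygous and 0 and 0 in the homozygous libraries. For *Cdk5r2* on the same chromosome the wild-type counts were 30 and 27, the heterozygous 16 and 17 and the homozygous 1 and 2. Counts of both genes stepped down with the labelled genotype in every library. All 12 markers fixed for mESCs were detected, the lowest at a wild-type mean of 31.8 CPM, that is counts relative to the library total after adjustment for composition (TMM). Of 30 markers fixed for fibroblasts, 29 passed the filter on low counts, and none of these 29 was at 0 in any library. Their summed level was 4746 and 4665 CPM in the wild-type, 3476 and 3423 in the heterozygous and 2484 and 2464 in the homozygous libraries. In bulk RNA fewer cells of a type and less RNA per cell cannot be told apart. The median log2 fold change of the 890 tested genes on chromosome 8 was 0.39 in homozygous against wild-type cells and -0.12 in heterozygous against wild-type cells. No p53 target among the 10 lies on chromosome 8.

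Levels were compared between genes as CPM per kb of exon, from exon lengths in the GENCODE M21 annotation of GRCm38. The spread in the wild-type cells was from 8.54 to 117 CPM per kb. *Bax*, a pore-forming protein of the outer mitochondrial membrane, was highest at 117 ± 2.65 CPM per kb (SD, n = 2). *Ccng1*, the cyclin G1 gene, followed at 92.1 ± 0.529 CPM per kb (SD, n = 2). Among tested genes these levels lay at the 97.9 and the 97.2 percentile. *Mdm2*, the ubiquitin ligase of p53, was at 43.4 ± 1.19 CPM per kb and *Phlda3*, an inhibitor of AKT signalling, at 38.6 ± 0.150 (SD, n = 2 each). The middle of the order was formed by *Trp53inp1* at 27.0 ± 0.0764, *Cdkn1a* at 22.4 ± 0.849 and *Aen* at 20.4 ± 0.546 CPM per kb (SD, n = 2 each). *Zmat3* at 12.2 ± 0.195, *Bbc3* at 11.49 ± 0.0998 and *Eda2r* at 8.54 ± 0.225 CPM per kb (SD, n = 2 each) were the lowest, and *Eda2r* still lay at the 68.0 percentile. Neighbours in this order did not overlap between their wild-type libraries. The exon length counts every annotated exon of a gene, and the transcripts present in these cells may be shorter. The SD does not include this, so the order of genes with close levels is uncertain. The order was the same in heterozygous cells. In homozygous cells *Cdkn1a*, at 18.2 and 18.0 CPM per kb, lay below *Aen*, at 21.4 and 20.4, and the other 8 genes kept their places.

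**Figure D1:**
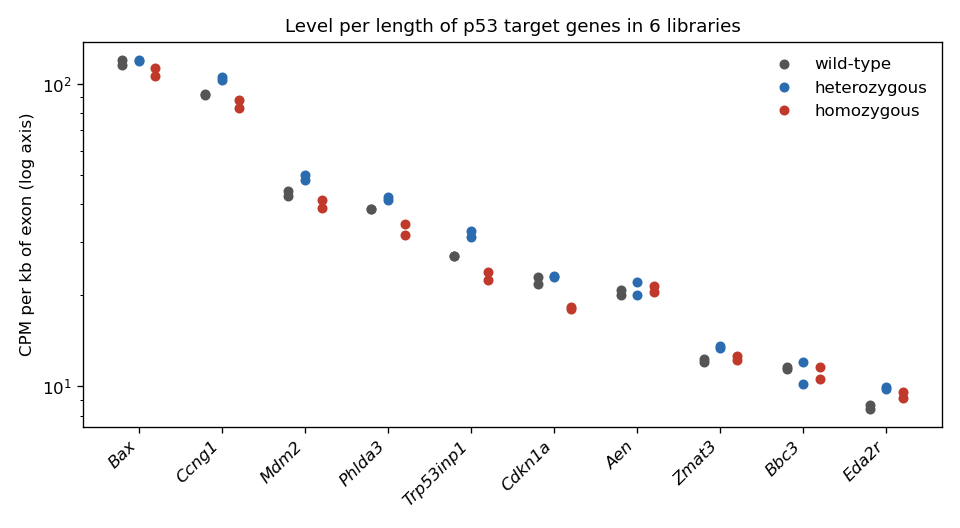
Level of the 10 p53 target genes in CPM per kb of exon on a log axis, ordered by the wild-type mean, with a point for each of the 6 libraries coloured by genotype. *Bax* (117 CPM per kb) and *Ccng1* (92.1) are highest and *Eda2r* (8.54) lowest in wild-type cells, and differences between genotypes are small beside the range over the 10 genes. In homozygous cells *Cdkn1a* lies below *Aen*.

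Promoter sequence was available for 8 of the 10 genes in a RefSeq table of GRCm38.p6, as windows from 250 bases before to 50 bases after each annotated start. The exact 10-base p53 consensus, which reads the same on both strands, was found in the windows of *Cdkn1a*, *Mdm2*, *Ccng1*, *Bax* and *Aen*. Of all 32851 promoter windows in that table, 8.36% hold at least 1 match, and 9.55% of its 27025 genes have such a window. The matching stretches are shown because they are the letters in these promoters that fit the binding consensus of p53. Each is written 5′ to 3′ on the strand of its gene, and capitals mark the exact matches.
*Cdkn1a*, chr17:29090881-29090962, plus strand: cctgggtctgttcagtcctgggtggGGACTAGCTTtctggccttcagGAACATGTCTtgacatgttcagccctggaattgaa
*Mdm2*, chr10:117710910-117710969, minus strand: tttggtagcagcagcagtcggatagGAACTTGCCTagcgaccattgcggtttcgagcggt
*Ccng1*, chr11:40755437-40755506, minus strand: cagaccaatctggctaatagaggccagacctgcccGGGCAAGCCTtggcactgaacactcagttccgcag
*Bax*, chr7:45467065-45467135, minus strand: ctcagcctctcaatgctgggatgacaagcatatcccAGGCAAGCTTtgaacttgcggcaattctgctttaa
*Aen*, chr7:78895927-78895956, plus strand: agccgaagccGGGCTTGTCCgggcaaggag
*Cdkn1a* held 2 exact matches, 73 and 51 bases before its start and 12 bases apart, and 0.0731% of all promoter windows hold such a pair with at most 13 bases between. In *Ccng1* and *Bax* the exact match had a partner beside it, so that 19 of the 20 positions of the doubled consensus were met. The share of promoter windows with at least 19 of 20 positions was 1.09%. The match lay 186 bases before the start of *Mdm2*, 185 before that of *Ccng1* and 201 before that of *Bax*. In *Aen* it lay 121 bases before one annotated start and 10 bases after another. No exact match was found in the windows of *Bbc3*, *Eda2r* and *Phlda3*. Sequence outside the windows was not searched for any gene, so sites there would be missed. A match is a description of the letters and was not tested for binding in these cells.

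The arrest gene *Cdkn1a* (ENSMUSG00000023067, chromosome 17, 29090976 to 29100727, plus strand) encodes p21, an inhibitor of cyclin-dependent kinases that halts the cell cycle. Its level was 77.5 and 81.8 CPM in the wild-type, 81.4 and 82.3 in the heterozygous and 64.8 and 64.0 in the homozygous libraries. Both homozygous libraries were below all other libraries, while wild-type and heterozygous libraries overlapped. For this and the other members, the share of all tested genes whose libraries separate in this way was not computed. With 2 libraries per genotype, separation describes the points and is not a test. The gene fell by 19.1% in homozygous against wild-type cells, a log2 fold change of -0.31 ± 0.050 (SE), with an adjusted p of 0.000132 by the quasi-likelihood test of edgeR, with adjustment over all tested genes after Benjamini and Hochberg. Against heterozygous cells it fell by 21.3%, a log2 fold change of -0.35 ± 0.050 (SE, edgeR adjusted p = 3.07e-05). Heterozygous and wild-type cells differed by 0.04 ± 0.049 on the log2 scale (SE, edgeR adjusted p = 0.764). The *Cdkn1a* exons share 273 bases with *AC167363.2* on the opposite strand, which had between 3 and 11 counts in a library against 1483 to 2277 for *Cdkn1a*, and whether the counting used strand is not given in the sources used here.

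The feedback genes *Mdm2* (ENSMUSG00000020184, chromosome 10, 117688875 to 117710758, minus strand) and *Ccng1* (ENSMUSG00000020326, chromosome 11, 40748552 to 40755311, minus strand) act on p53 itself. *Mdm2* was at 224.7 and 216.2 CPM in the wild-type, 244.5 and 253.9 in the heterozygous and 197.4 and 210.1 in the homozygous libraries. *Ccng1*, whose product is known to recruit a phosphatase to Mdm2, was at 322 and 325 CPM in the wild-type, 362 and 370 in the heterozygous and 291 and 309 in the homozygous libraries. For both genes heterozygous libraries were highest and homozygous libraries lowest. The libraries were also apart in homozygous against wild-type cells, where neither gene was called. In heterozygous against wild-type cells *Mdm2* rose 1.13-fold (log2 0.18 ± 0.045, SE, edgeR adjusted p = 0.0230) and *Ccng1* likewise 1.13-fold (log2 0.18 ± 0.042, SE, edgeR adjusted p = 0.0144). In homozygous against wild-type cells neither passed the test, at -0.11 ± 0.045 for *Mdm2* and -0.11 ± 0.042 for *Ccng1* on the log2 scale (SE, edgeR adjusted p = 0.0824 and 0.0797). Between homozygous and heterozygous cells *Mdm2* fell by 18.2% (log2 -0.29 ± 0.045, SE, edgeR adjusted p = 7.00e-05) and *Ccng1* by 18.0% (log2 -0.29 ± 0.042, SE, edgeR adjusted p = 4.06e-05).

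*Trp53inp1* (ENSMUSG00000028211, chromosome 4, 11156431 to 11174379, plus strand) encodes a stress-induced nuclear protein that promotes p53 phosphorylation. Its level was 174.3 and 175.0 CPM in the wild-type, 200.9 and 210.6 in the heterozygous and 145.5 and 154.0 in the homozygous libraries. This was the only member called in all 3 comparisons. It rose by 17.9% in heterozygous against wild-type cells (log2 0.24 ± 0.045, SE, edgeR adjusted p = 0.00241) and fell by 14.2% in homozygous against wild-type cells (log2 -0.22 ± 0.045, SE, edgeR adjusted p = 0.00127). Homozygous cells were 27.2% lower than heterozygous cells, with a log2 fold change of -0.46 ± 0.045 (SE, edgeR adjusted p = 2.17e-07), the largest difference among the 10 genes.

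*Phlda3* (ENSMUSG00000041801, chromosome 1, 135766119 to 135769136, plus strand) encodes a protein with a pleckstrin homology domain that holds back AKT. It lies on the chromosome of the deletion. *Phlda3* was at 59.9 and 60.3 CPM in the wild-type, 64.4 and 65.8 in the heterozygous and 53.7 and 49.1 in the homozygous libraries. It fell by 14.6% in homozygous against wild-type cells (log2 -0.23 ± 0.055, SE, edgeR adjusted p = 0.00540) and by 21.1% against heterozygous cells (log2 -0.34 ± 0.055, SE, edgeR adjusted p = 0.000113). Its heterozygous difference from wild-type was 0.11 ± 0.054 (log2, SE, edgeR adjusted p = 0.299).

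*Eda2r* (ENSMUSG00000034457, chromosome X, 97333840 to 97377216, minus strand) encodes a receptor of the tumour necrosis factor receptor superfamily for ectodysplasin A2. Its level was 51.3 and 49.4 CPM in the wild-type, 57.9 and 58.5 in the heterozygous and 53.9 and 56.3 in the homozygous libraries. Wild-type libraries were lowest and heterozygous libraries highest. *Eda2r* rose by 15.5% in heterozygous against wild-type cells (log2 0.21 ± 0.053, SE, edgeR adjusted p = 0.0250). The differences of homozygous from wild-type cells, 0.13 ± 0.054, and from heterozygous cells, -0.08 ± 0.054 on the log2 scale, did not pass the test (SE, edgeR adjusted p = 0.0937 and 0.317).

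Among the apoptosis genes of the mitochondrial pathway, *Bax* (ENSMUSG00000003873, chromosome 7, 45461697 to 45466898, minus strand) was at 182.0 and 187.9 CPM in the wild-type, 188.8 and 186.5 in the heterozygous and 177.4 and 166.7 in the homozygous libraries. Homozygous libraries were lowest, and wild-type and heterozygous libraries overlapped. *Bax* was 8.34% lower in homozygous than in heterozygous cells (log2 -0.13 ± 0.045, SE, edgeR adjusted p = 0.0449), and it passed the test in no comparison with wild-type (log2 0.02 and -0.10, edgeR adjusted p = 0.880 and 0.106). *Bbc3* (ENSMUSG00000002083, chromosome 7, 16308393 to 16318205, plus strand), the gene of the BH3-only protein PUMA, was the member with the fewest counts, between 564 and 721 in a library. It was at 24.5 and 24.2 CPM in the wild-type, 25.6 and 21.5 in the heterozygous and 24.6 and 22.4 in the homozygous libraries. The genotypes overlapped, and the log2 differences of *Bbc3* were -0.05 ± 0.082 in heterozygous and -0.06 ± 0.082 in homozygous against wild-type cells (SE, edgeR adjusted p = 0.835 and 0.697).

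*Zmat3* (ENSMUSG00000027663, chromosome 3, 32334792 to 32366014, minus strand) encodes a zinc finger protein that binds RNA. It was at 141.1 and 138.0 CPM in the wild-type, 153.6 and 156.0 in the heterozygous and 139.8 and 143.7 in the homozygous libraries. Both heterozygous libraries were above the other 4, and wild-type and homozygous libraries overlapped. The heterozygous difference from wild-type was 0.15 ± 0.043 (log2, SE, edgeR adjusted p = 0.0505), at the edge of the threshold, and homozygous cells were 8.39% lower than heterozygous cells (log2 -0.13 ± 0.043, SE, edgeR adjusted p = 0.0383). *Aen* (ENSMUSG00000030609, chromosome 7, 78895854 to 78911209, plus strand), an apoptosis-enhancing nuclease, was at 120.4 and 115.9 CPM in the wild-type, 128.1 and 115.8 in the heterozygous and 124.1 and 118.4 in the homozygous libraries. All genotypes overlapped, and the *Aen* differences were 0.05, 0.04 and -0.01 on the log2 scale, with edgeR adjusted p from 0.678 to 0.930.

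**Figure D2:**
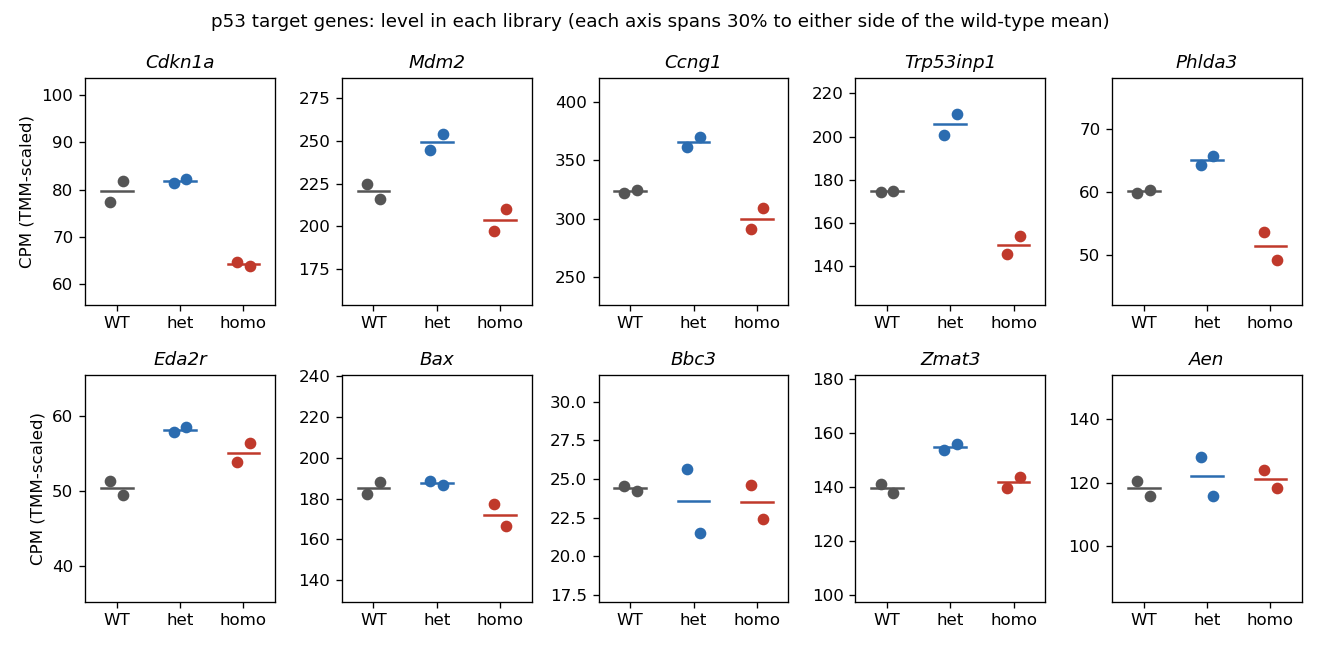
Level of each p53 target gene in CPM in wild-type (WT), heterozygous (het) and homozygous (homo) deletion cells, with a point per library and a line at the mean of 2 libraries. Each axis is centred on the wild-type mean and does not start at 0. *Trp53inp1*, *Mdm2*, *Ccng1* and *Phlda3* are highest in heterozygous and lowest in homozygous libraries, while *Bbc3* and *Aen* overlap in all genotypes. The share of all tested genes that separate in this way was not computed.

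Across the members, 4 of 10 were higher and 0 lower in heterozygous against wild-type cells, where 2.23% of all tested genes were called higher and 2.91% lower. At an unadjusted p under 0.05 6 members were higher and 0 lower, but the share of all tested genes at that looser cut was not computed. DESeq2 called 2 members higher and 0 lower, beside 180 higher and 253 lower among all 16951 tested genes. The median log2 fold change of the members was 0.13, and 9 of 10 were above 0, while the median of all tested genes was 0.00. The calls depended on the wild-type and heterozygous libraries. Without wild-type replicate 1, wild-type replicate 2 or heterozygous replicate 1 only *Trp53inp1* passed the test, and without heterozygous replicate 2 no member did (*Trp53inp1* adjusted p = 0.0664). In these fits the adjusted p reached 0.290 for *Mdm2*, 0.181 for *Ccng1* and 0.267 for *Eda2r*, with the lone library of that genotype assumed to vary like the others. Over all 6 fits with a library left out the log2 fold change ran from 0.20 to 0.27 for *Trp53inp1*, 0.15 to 0.21 for *Mdm2*, 0.16 to 0.20 for *Ccng1* and 0.18 to 0.24 for *Eda2r*. The 9 of 10 directions above 0 include *Bax* and *Aen*, which changed sign when a library was left out.

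In homozygous against wild-type cells 3 of 10 members were lower and 0 higher, where 10.5% of tested genes were called lower and 10.9% higher. At an unadjusted p under 0.05 6 members were lower and 1 higher, again without the share of all tested genes at that cut. DESeq2 called 3 members lower and 0 higher, beside 929 lower and 1223 higher among all 16951 tested genes. The median of the members was -0.11 against -0.01 for all tested genes. *Cdkn1a* and *Trp53inp1* passed the test without any 1 library and under all 9 other settings. *Phlda3* was lost without wild-type replicate 2 (adjusted p = 0.0574) or homozygous replicate 2 (adjusted p = 0.0687). *Mdm2* and *Ccng1* were also called lower when libraries were scaled by total counts only (adjusted p = 0.0116 and 0.00797), when every gene with a count was kept (0.0495 and 0.0450) and without homozygous replicate 2 (0.0232 and 0.0233).

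The difference between the deletions was tested directly, since both comparisons above share the wild-type libraries. In homozygous against heterozygous cells 7 of 10 members were lower and 0 higher, where 12.9% of tested genes were called lower and 12.9% higher. At an unadjusted p under 0.05 7 were lower and 0 higher, and the share of all tested genes at that cut was not computed here either. DESeq2 called 5 members lower and 0 higher, beside 1041 lower and 1554 higher among all 16951 tested genes. The median of the members was -0.21 against -0.02 for all tested genes. *Cdkn1a*, *Mdm2*, *Ccng1*, *Trp53inp1* and *Phlda3* passed under every setting tried and without any 1 library. The smaller differences of *Bax* and *Zmat3* did not: each passed in only 1 of 6 fits with a library left out, *Bax* without homozygous replicate 1 and *Zmat3* without homozygous replicate 2. The adjusted p of these fits ran from 0.0212 to 0.267 for *Bax* and from 0.0387 to 0.196 for *Zmat3*.

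Under the rule that also requires an absolute log2 fold change above 1, 0 members were called by edgeR in any comparison, and 0 by DESeq2 or at an unadjusted p under 0.05. The share of tested genes past that rule was 0.165% in heterozygous against wild-type, 2.14% in homozygous against wild-type and 1.39% in homozygous against heterozygous cells. Summed over the 10 genes, the level was 1378 and 1373 CPM in the wild-type, 1507 and 1521 in the heterozygous and 1272 and 1294 in the homozygous libraries. Beside these values, 23 of 29 fibroblast markers were called lower in heterozygous and 26 of 29 in homozygous against wild-type cells, and 25 of 29 lower and 1 higher in homozygous against heterozygous cells. Of 12 mESC markers, 7 were called lower in heterozygous against wild-type cells, but 2 without wild-type replicate 2, 3 without heterozygous replicate 2 and 4 without wild-type replicate 1. Against wild-type, 2 of the 12 were higher and 1 lower in homozygous cells, and the lower call, of *Klf4* (adjusted p = 0.0456), was lost without any 1 wild-type or homozygous library (0.0763 to 0.216) and under DESeq2 (0.242). Between homozygous and heterozygous cells 9 of the 12 were higher, but 4 without homozygous replicate 1. At an adjusted p below 0.05 alone, 2.23% of all tested genes were higher and 2.91% lower in heterozygous against wild-type cells. The shares were 10.9% and 10.5% in homozygous against wild-type cells, and 12.9% each way between the deletions. The mESC markers called against wild-type in homozygous cells, 16.7% higher and 8.33% lower, were near those shares. The part of either cell type in the differences of the p53 targets was not tested.

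**Figure D3:**
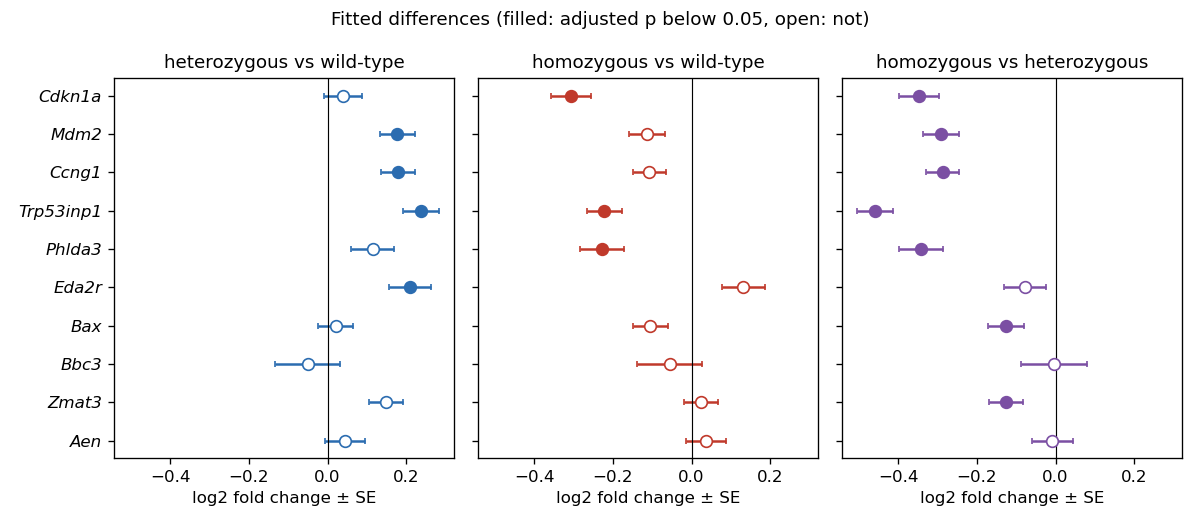
Fitted log2 fold change ± SE of the 10 p53 target genes in each of the 3 comparisons, from 6 libraries, with filled points at an adjusted p below 0.05 and open points above. *Trp53inp1* is highest in the heterozygous comparison (0.24) and lowest between homozygous and heterozygous cells (-0.46), and the points of *Bbc3* and *Aen* lie within 1 SE of 0 in each comparison.

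The p53 gene itself did not pass the test in any comparison. *Trp53* was at 468.8 and 462.1 CPM in the wild-type, 454.9 and 447.9 in the heterozygous and 479.5 and 461.5 in the homozygous libraries. Its log2 differences were -0.04 ± 0.040 in heterozygous and 0.02 ± 0.040 in homozygous against wild-type cells (SE, edgeR adjusted p = 0.657 and 0.835). *Mdm4*, the partner of Mdm2 that masks the activation domain of p53, was at 173.5 and 158.6 CPM in the wild-type, 173.0 and 184.6 in the heterozygous and 136.6 and 169.1 in the homozygous libraries. Its homozygous libraries were far apart, and it was called only between homozygous and heterozygous cells, lower by 0.22 ± 0.070 on the log2 scale and 14.4% (SE, edgeR adjusted p = 0.0226). That call was lost without homozygous replicate 1 (adjusted p = 0.402) or heterozygous replicate 2 (0.162), under robust dispersion (0.256) and with DESeq2 (0.356). Of 22 tested regulators of p53, counting both, 0 were called in heterozygous against wild-type cells (0 at an unadjusted p under 0.05 and 0 by DESeq2). In homozygous against wild-type cells 3 were higher (13.6%, against 10.9% of all tested genes) and 0 lower (1 lower at an unadjusted p under 0.05, 0 by DESeq2), among them *Crebbp*, a histone acetyltransferase that coactivates p53, at 0.21 ± 0.060, and *Sirt1*, a deacetylase of p53, at 0.19 ± 0.047 (log2, SE, edgeR adjusted p = 0.0164 and 0.00726). Without wild-type replicate 2 only 1 was higher, and *Crebbp* and *Sirt1* were lost (adjusted p = 0.188 and 0.0683), while *Crebbp* was also lost without homozygous replicate 1 (0.110) and under DESeq2 (0.0533). With libraries scaled by total counts only, 1 regulator was higher and 1 lower, and *Crebbp* and *Sirt1* did not pass (0.0814 and 0.0567). The list had 5 higher and 2 lower without homozygous replicate 2.

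A longer list of 30 further p53 targets was fixed to set beside the members. In heterozygous cells 6 of 30 rose and 2 of 30 fell relative to wild-type, against 2.23% and 2.91% of all tested genes, with a median log2 fold change of 0.04. The largest rises were of *Perp*, a desmosomal protein gene of p53-dependent apoptosis, at 65.7 and 66.7 CPM in wild-type and 91.4 and 92.7 in heterozygous libraries (log2 0.48 ± 0.047, SE, edgeR adjusted p = 2.64e-06), and of *Plk2*, a polo-like kinase gene, from 114.6 and 117.1 to 150.1 and 156.3 CPM (log2 0.40 ± 0.045, SE, edgeR adjusted p = 1.03e-05). *Ephx1*, the microsomal epoxide hydrolase, and *Ak1*, adenylate kinase, were the ones that fell, by 0.34 ± 0.095 and 0.21 ± 0.053 on the log2 scale (SE, edgeR adjusted p = 0.0446 and 0.0251). Both falls were lost under DESeq2 and without any 1 wild-type or heterozygous library (adjusted p of 0.0605 to 0.384 for *Ephx1* and 0.0875 to 0.259 for *Ak1*). In homozygous cells 2 rose (6.67%) and 4 fell (13.3%) relative to wild-type, against 10.9% and 10.5% of all tested genes, with a median of -0.04. *Perp* rose there too (log2 0.41 ± 0.048, SE, edgeR adjusted p = 2.10e-06), against the direction of the called members, and *Ephx1* and *Ak1* fell by 0.73 ± 0.10 and 0.46 ± 0.055 on the log2 scale (SE, edgeR adjusted p = 1.89e-05 and 3.21e-06). The other rise, of the spindle gene *Ckap2* by 0.54 ± 0.043 (log2, SE, edgeR adjusted p = 1.39e-08), was of a gene on chromosome 8. Between homozygous and heterozygous cells 2 were higher (6.67%) and 11 lower (36.7%), against 12.9% of all tested genes in each direction, with a median of -0.12. *Plk2* was among these, lower by 0.37 ± 0.045 on the log2 scale (SE, edgeR adjusted p = 4.05e-06), while *Perp* differed by -0.06 ± 0.047 (SE, edgeR adjusted p = 0.349).

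Of 22 tested genes that sense and repair DNA breaks, 10 were higher (45.5%, against 10.9% of all tested genes) and 0 lower in homozygous cells relative to wild-type (0 lower at an unadjusted p under 0.05 and by DESeq2), with a median log2 fold change of 0.14. The number higher was 10 by DESeq2 and 8 when libraries were scaled by total counts only. It was also smaller than 10 without either wild-type library or without homozygous replicate 2. *Atm*, the kinase that responds to double-strand breaks, was at 66.8 and 59.6 CPM in the wild-type, 60.4 and 63.1 in the heterozygous and 87.9 and 79.9 in the homozygous libraries, a rise of 0.40 ± 0.060 on the log2 scale (SE, edgeR adjusted p = 4.83e-05). *Lig4*, the ligase of end joining, rose by 0.42 ± 0.070 (log2, SE, edgeR adjusted p = 0.000172) and lies on chromosome 8. In heterozygous cells 0 of the 22 were higher and 1 was lower (4.55%, against 2.91% of all tested genes; 0 higher and 3 lower at an unadjusted p under 0.05, 0 and 1 by DESeq2), *Parp1* at -0.16 ± 0.040 (log2, SE, edgeR adjusted p = 0.0247). That call was lost without any 1 of the 4 wild-type and heterozygous libraries (adjusted p of 0.0819 to 0.292).

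Genes that p53 is known to hold down through the cell cycle machinery were also counted. In homozygous cells 7 of 20 were higher (35.0%, against 10.9% of all tested genes) and 0 lower relative to wild-type (1 lower at an unadjusted p under 0.05, 0 by DESeq2), with a median of 0.10. Among these were *Mcm5*, a subunit of the replicative helicase on chromosome 8, by 0.49 ± 0.040, and the proliferation marker *Mki67*, by 0.30 ± 0.052 (log2, SE, edgeR adjusted p = 1.57e-08 and 0.000227). The count was 2 without wild-type replicate 1, and 3 higher and 1 lower when libraries were scaled by total counts only. In heterozygous cells *Foxm1*, a transcription factor of mitosis, rose by 0.19 ± 0.045 and *Mcm5* fell by 0.23 ± 0.040 on the log2 scale (SE, edgeR adjusted p = 0.0141 and 0.00127), and the other 18 did not pass the test. That is 5% in each direction, against 2.23% higher and 2.91% lower among all tested genes. The *Foxm1* call was lost under DESeq2 and without any 1 wild-type or heterozygous library (adjusted p of 0.0675 to 0.210).

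The families of *Bbc3*, *Bax* and *Cdkn1a* were counted in the same way. Of 12 tested BCL2 family genes other than *Bax*, *Bbc3* and *Pmaip1*, *Bcl2*, an inhibitor of apoptosis, was higher in heterozygous cells at 0.51 ± 0.12, and *Bcl2l2* and *Bmf* were lower in homozygous cells at -0.43 ± 0.097 and -0.38 ± 0.11 (log2 against wild-type, SE, edgeR adjusted p = 0.0164, 0.00313 and 0.0138). *Pmaip1*, a BCL2 family gene counted with the further p53 targets, rose by 0.32 ± 0.044 in heterozygous against wild-type cells (log2, SE, edgeR adjusted p = 7.64e-05). Its log2 difference was 0.00 ± 0.044 in homozygous against wild-type cells and -0.32 ± 0.044 between homozygous and heterozygous cells (SE, edgeR adjusted p = 0.991 and 1.49e-05). *Bcl2* was low, at 4.87 CPM in wild-type and 6.94 in heterozygous cells, and its call was lost under DESeq2 and without any 1 wild-type or heterozygous library (adjusted p of 0.0663 to 0.182). The 1 higher of 12 in heterozygous cells (8.33%) stands against 2.23% of all tested genes. The 2 lower of 12 in homozygous cells (16.7%) stand against 10.5% of all tested genes. Both homozygous calls were lost without homozygous replicate 1 (adjusted p = 0.0709 for *Bcl2l2* and 0.0679 for *Bmf*), and that of *Bmf* also without wild-type replicate 1 (0.216) and under DESeq2 (0.121). Of 7 other inhibitors of cyclin-dependent kinases, *Cdkn2b* was lower at -0.72 ± 0.10 and *Cdkn1c* higher at 0.43 ± 0.067 in homozygous cells (log2 against wild-type, SE, edgeR adjusted p = 2.69e-05 and 9.80e-05), which is 14.3% in each direction against 10.5% lower and 10.9% higher among all tested genes. In heterozygous cells 0 of the 7 were called (0 at an unadjusted p under 0.05, 0 by DESeq2).

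**Figure D4:**
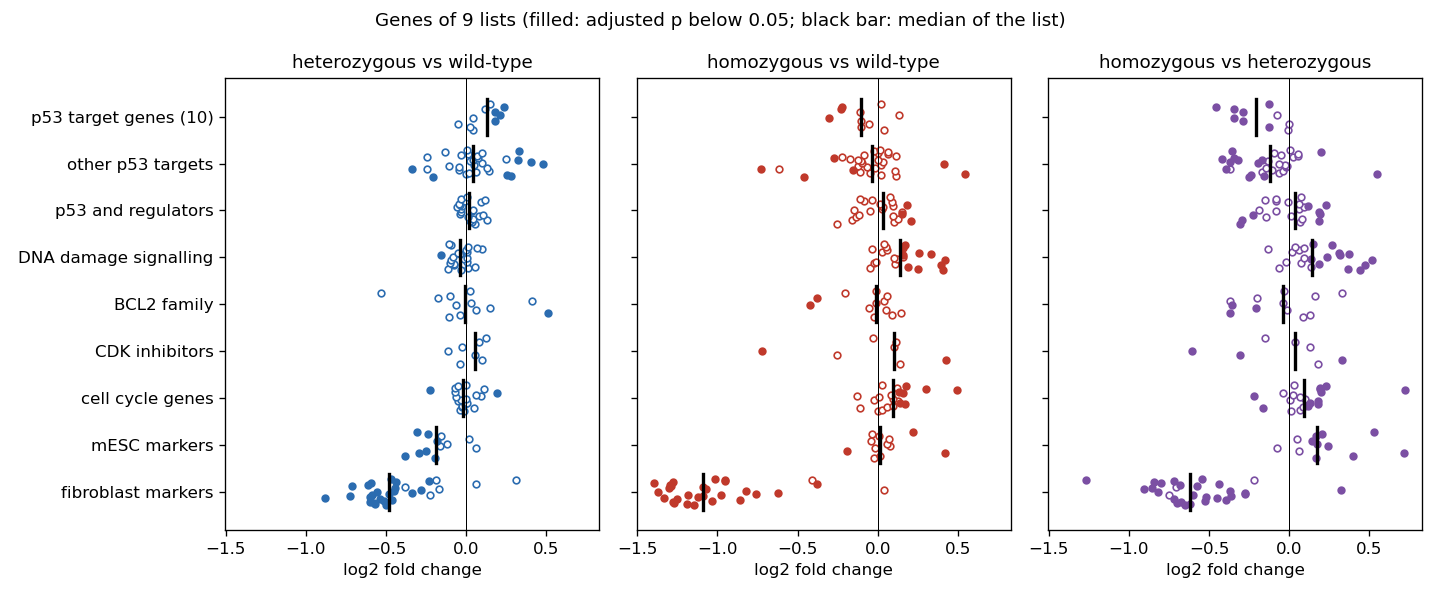
Fitted log2 fold change of each tested gene (points) in the 10 p53 targets and 8 fixed lists, in each comparison, with filled points at an adjusted p below 0.05 and a bar at the list median. The median of the 10 targets goes from 0.13 to -0.11 and -0.21 over the panels, that of DNA damage signalling from -0.04 to 0.14 and 0.14, and that of fibroblast markers from -0.48 to -1.09 and -0.62.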

How the data were processed

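PolyA RNA of 6 samples was made into stranded libraries and sequenced. What the authors deposited is a table of unnormalized read counts for 55385 genes. The submitters' processing notes name Trimmomatic 0.39, STAR 2.6.1d, SAMtools 1.9, featureCounts 1.6.4 and DESeq2 1.22.2, with the mm10 build; the annotation release and strand setting are not given in the sources used here. Methods state triplicates, and the labels give 2 libraries per genotype.

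A gene was tested if 2 or more libraries held 10 or more counts. All 6 libraries entered 1 quasi-likelihood fit of 3 genotypes in edgeR 4.0.16 (R 4.3.3) with TMM factors, tested on simulated data. A call is a Benjamini-Hochberg adjusted p below 0.05 over all tested genes; the study's rule adds an absolute log2 fold change above 1. The biological coefficient of variation was 3.52%. Replicates differed by more than sampling noise (chi-square per degree of freedom 2.34 to 3.65), and 3 counts correspond to 0.102 to 0.131 CPM, for counting error only. Alternatives were other scalings, filters, DESeq2 1.42.0, a replicate block and each library left out. The genes named are the 10 members, *Trp53*, *Mdm4*, *Wnt6*, *Cdk5r2*, *Pmaip1* and, per list and deletion, up to 2 of the strongest calls in each direction against wild-type. Marker lists are given by counts and sums. The members, lists and tests were chosen with earlier results of these data known. Promoter windows came from RefSeq and were searched in Python 3.11.15.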

Additional observations from a re-analysis of the deposited data

Results flagged for a closer look

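Of the 10 p53 target genes, 7 were marked because their effects in the homozygous and the heterozygous deletion differed in a direct test (quasi-likelihood test of edgeR, adjusted after Benjamini and Hochberg). The homozygous minus heterozygous difference on the log2 scale was -0.46 for *Trp53inp1*, -0.35 for *Cdkn1a*, -0.34 for *Phlda3*, -0.29 for *Mdm2*, -0.29 for *Ccng1*, -0.13 for *Zmat3* and -0.13 for *Bax*. Of all tested genes 12.9% were called lower in this comparison. Both homozygous libraries were below both heterozygous libraries for each of the 7, which the same comparison had picked, so this adds no support. *Bax* passed in 4 and *Zmat3* in 3 of the 9 alternative settings, and both were lost under DESeq2 and with the replicate block. In place of 7, 5 members were called with DESeq2 size factors, the DESeq2 test, only the 4 libraries compared and the replicate block. The count was also 5 with TMM factors taken without chromosome 8 genes and fibroblast markers. The groups hold 2 libraries each, too few to look for a library that stands apart from its group.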

How the results depend on the processing

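The count of members called in heterozygous against wild-type cells was 2 with DESeq2, and 0 to 5 over the fits that left out a library. In homozygous against wild-type cells it was 6 with total counts only and 5 when all genes with any count were kept, and 2 to 4 with a library left out. Between homozygous and heterozygous cells it was 5 to 6 with a library left out. Over all genes, DESeq2 called 433, 2152 and 2595 genes in the 3 comparisons, against 871, 3633 and 4371 with edgeR, and fits without a library called 352 to 1306, 2148 to 3618 and 2908 to 4357.

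Scaling by total counts only moved the median of all genes by -0.06 and -0.07 (log2) in the homozygous comparisons, and the split of calls from 1847 higher and 1786 lower to 1183 and 2525 against wild-type, and from 2191 and 2180 to 1391 and 3340 against heterozygous cells. Under it *Zmat3* and *Aen* turned to -0.034 and -0.021 in homozygous against wild-type cells. The near-zero differences between the deletions changed sign with DESeq2 size factors (*Bbc3* 0.0087, *Aen* 0.0047), the DESeq2 test (0.0088 and 0.0047), only the 4 libraries compared (0.0044 and 0.0002) and TMM factors without chromosome 8 genes and fibroblast markers (0.0116 and 0.0076), a setting chosen after seeing the data. With a library left out, they ran from -0.127 to 0.125 for *Bbc3* and from -0.0799 to 0.0655 for *Aen*. The differences from wild-type ran from -0.180 to 0.0718 for *Bbc3*, -0.0021 to 0.0441 for *Bax* and -0.029 to 0.117 for *Aen* in heterozygous cells, and from -0.114 to 0.0135 for *Bbc3* in homozygous cells. The cause was not tested.

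The replicate numbers shared between genotypes showed no clear positive pairing: deviations from the genotype means correlated at 0.04, -0.18 and 0.01. With 2 libraries per genotype this cannot settle whether libraries were handled in pairs. With the replicate block the members called were 4, 3 and 5, and *Bax* and *Zmat3* (adjusted p = 0.0602 and 0.0538) no longer passed between the deletions. With 2 libraries per genotype, the log2 differences of the members had an SE of 0.042 to 0.083, which includes the spread between libraries.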
